A study of Homo sapiens with 6 samples.

Results

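The genes described here are 10 components and targets of the NF-kB pathway: the subunit genes NFKB1, NFKB2, RELA and RELB, the inhibitor genes NFKBIA and TNFAIP3, and the survival genes BIRC2, BIRC3, TRAF1 and TRAF2. They were chosen by their symbols in the deposited gene table, where all 10 were found once each among 35252 genes with a count, and all 10 passed the filter on low counts, beside 20593 genes tested in all. They were measured in HK2 cells, an established human line with a proximal tubule origin in the kidney. Cells of both groups carried a transfected plasmid encoding VMP1 with a FLAG tag (VMP1 sits in the endoplasmic reticulum membrane and acts in autophagy), and RNA was collected 48 hours later. One group of 3 libraries came from total cell lysate and is titled positive control. The other group of 3 libraries came from RNA pulled down with FLAG antibody beads and is titled FLAG VMP1 IP. Polyadenylated RNA was sequenced from every library. The comparison asks which RNAs were more or less abundant in the FLAG immunoprecipitate than in the lysate of transfected cells. Untransfected cells put through the same pull-down were not analysed here. Separate cultures are not named in the labels, so each p-value reflects only how much these libraries varied, which may be technical.

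NF-kB is a family of dimeric transcription factors. In resting cells the inhibitor IkB-alpha, encoded by NFKBIA, holds the RELA and p50 dimer in the cytoplasm, and signals from receptors of the tumour necrosis factor, interleukin-1 and Toll-like families lead to its destruction, so that the dimer enters the nucleus. The factor then switches on inflammatory genes, survival genes such as BIRC3 and TRAF1, and its own inhibitors NFKBIA and TNFAIP3, which close a feedback loop. The tubule epithelium of the kidney uses this pathway in injury and inflammation.

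The kappaB decamer consensus, the recognition element of NF-kB, was searched on both strands and with overlapping matches allowed, in RefSeq windows of 300 bases (250 before and 50 after each start, GRCh38.p14). It occurred in 11.3% of 35116 windows and in at least 1 window of 13.3% of 27305 genes. Of the 10 genes, 9 were matched in the table, and 5 of these held it in at least 1 window: NFKB1, NFKB2, NFKBIA, TNFAIP3 and BIRC3. RELB was not matched. NFKB2 held it in 2 of its 3 windows. The 250 bases before the start are shown for 4 of the 5 genes and for BIRC2, the neighbour of BIRC3, in which no match was found. Capitals mark the decamers.
NFKB1 (chr4:102501109-102501358, plus strand): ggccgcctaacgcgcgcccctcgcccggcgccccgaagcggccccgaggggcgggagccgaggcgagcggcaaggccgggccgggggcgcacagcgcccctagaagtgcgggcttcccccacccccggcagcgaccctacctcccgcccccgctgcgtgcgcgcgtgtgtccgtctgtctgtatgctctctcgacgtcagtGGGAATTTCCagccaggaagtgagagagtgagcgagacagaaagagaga
NFKBIA (chr14:35404750-35404999, minus strand): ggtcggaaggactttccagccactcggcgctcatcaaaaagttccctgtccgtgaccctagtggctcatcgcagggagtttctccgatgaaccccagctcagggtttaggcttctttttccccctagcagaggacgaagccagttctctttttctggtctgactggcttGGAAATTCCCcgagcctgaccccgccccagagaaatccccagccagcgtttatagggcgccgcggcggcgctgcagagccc
TNFAIP3 (chr6:137867009-137867258, plus strand): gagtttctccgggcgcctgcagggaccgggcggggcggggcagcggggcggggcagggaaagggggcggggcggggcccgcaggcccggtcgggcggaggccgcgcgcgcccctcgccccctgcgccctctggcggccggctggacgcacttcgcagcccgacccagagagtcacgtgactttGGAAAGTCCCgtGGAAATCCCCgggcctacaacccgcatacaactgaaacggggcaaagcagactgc
BIRC3 (chr11:102317234-102317483, plus strand): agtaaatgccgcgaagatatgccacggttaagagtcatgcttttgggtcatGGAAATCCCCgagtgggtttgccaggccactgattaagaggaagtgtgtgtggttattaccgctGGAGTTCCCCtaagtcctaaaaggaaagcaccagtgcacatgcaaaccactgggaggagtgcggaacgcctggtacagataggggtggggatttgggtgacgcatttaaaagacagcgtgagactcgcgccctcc
BIRC2 (chr11:102346964-102347213, plus strand): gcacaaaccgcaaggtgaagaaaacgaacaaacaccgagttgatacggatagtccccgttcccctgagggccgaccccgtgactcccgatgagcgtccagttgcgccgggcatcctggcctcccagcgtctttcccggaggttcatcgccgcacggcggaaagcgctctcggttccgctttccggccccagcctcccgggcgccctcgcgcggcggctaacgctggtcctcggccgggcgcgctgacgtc
The decamer began 49 bases before the start in NFKB1, 81 bases before it in NFKBIA, 67 and 55 bases before it in TNFAIP3, and 199 and 135 bases before it in BIRC3. A match describes these letters only, and the libraries measured RNA, not binding of the factor.

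The libraries held 77753608 to 92948069 gene counts in the lysates and 54363555 to 59293096 in the immunoprecipitates. Levels are given in CPM, counts relative to the library total after TMM scaling, which adjusts that total for composition. VMP1 itself was at 297 to 306 CPM in the lysates, at 2347 CPM in immunoprecipitate 1 and at 2685 CPM in immunoprecipitate 3, but at 274 CPM in the library labelled FLAG immunoprecipitate 2. In VMP1 RNA this library lay near the lysates and far below immunoprecipitates 1 and 3, and whether its label is right was not tested. Every mean and fit over 3 immunoprecipitates below includes this library. Fits with and without it are therefore given for each of the 10 genes and for the other pathway genes named. Kidney epithelial markers summed to 3026 to 3260 CPM in the lysates, with PAX8 present. The mature proximal tubule genes among them differed. GGT1 was at 215 to 237 CPM and ANPEP at 13.7 to 21.7 CPM in the lysates. AQP1 and CUBN were below 1 CPM in each lysate, and LRP2 was not among the genes with a count.

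Of the 10 genes, 1 rose and 0 fell in the immunoprecipitate over all 6 libraries (edgeR quasi-likelihood test, Benjamini-Hochberg or BH adjusted p below 0.05), where 0.160% of all tested genes were called higher and 0.500% lower. The gene that rose was BIRC3. At an unadjusted p below 0.05, 3 of the 10 were higher and 0 were lower with edgeR, where 11.9% and 9.44% of all tested genes were. DESeq2 called 2 of the 10 higher and 0 lower after adjustment (7.02% and 4.33% of 22205 genes tested with it), and gave no p-value for TRAF1. Without the library labelled 2, 3 of the 10 were higher and 5 were lower, against 23.9% and 27.2% of 22062 genes. The 10 genes did not share 1 pattern, and tested genes at large were likewise split between both directions. In the library labelled 2 all 10 were above every lysate, as were 40.9% of tested genes, and 7 were at least 2-fold above the lysate mean, as were 13.3%. In immunoprecipitates 1 and 3 together, 3 were above every lysate (32.8% of tested genes) and 6 were below every lysate (40.1%). For those 6 genes (NFKB1, NFKB2, RELA, RELB, NFKBIA and TRAF1) the library labelled 2 was the highest of all in CPM and immunoprecipitates 1 and 3 were the lowest. This order was held by 16.4% of tested genes.

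**Figure D1:**
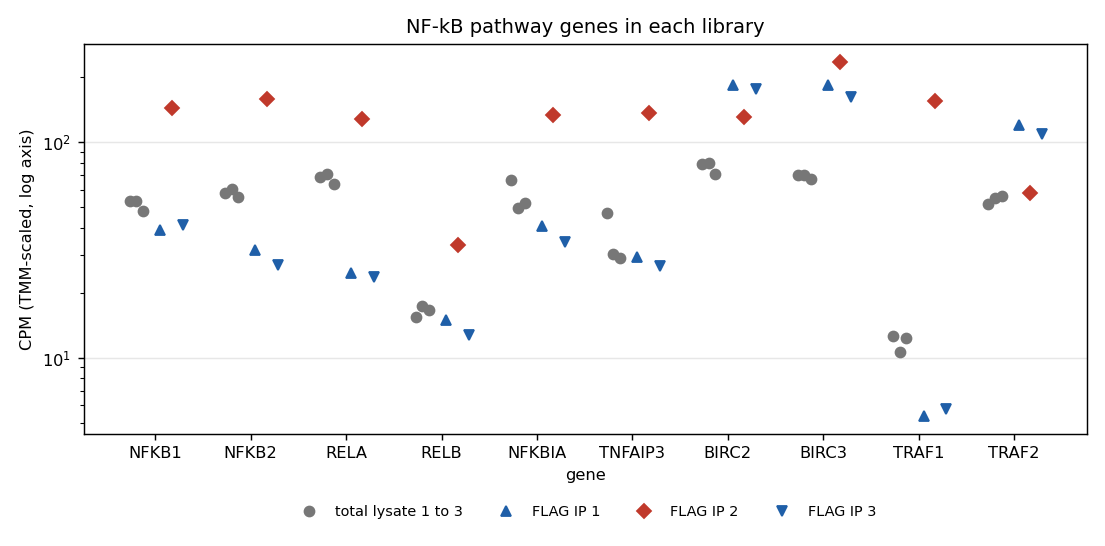
CPM (log axis) of the 10 genes in each library: grey circles are the 3 lysates, blue triangles immunoprecipitates 1 and 3, red diamonds the library labelled 2. For BIRC2, BIRC3 and TRAF2 every immunoprecipitate lies above the lysates, and for TRAF1 the library labelled 2 reaches 154 CPM against 12.6 or less in the lysates.

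All 4 subunit genes were highest in the library labelled 2. RELA (ENSG00000173039, chromosome 11, 65653599 to 65663090), the p65 subunit with the main activation domain, was at 68.5, 71.1 and 63.4 CPM in lysates 1, 2 and 3, against 24.8, 128 and 23.7 CPM in the numbered immunoprecipitates. Immunoprecipitates 1 and 3 lay 2.73-fold and 2.86-fold below the lysate mean, while the library labelled 2 lay 1.89-fold above it. Fitted to all 6 libraries, its log2 change was -0.21 (SE 0.68, edgeR BH-adjusted p = 0.886), and without the library labelled 2 RELA fell by 1.47 (SE 0.08, edgeR BH-adjusted p = 2.63e-05). A divergent transcript, RELA-DT, overlaps RELA over 88 bases on the other strand and held 23 to 243 counts per library, so a few reads there are uncertain.

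NFKB2 (ENSG00000077150, chromosome 10, 102394110 to 102402524) encodes p100, the precursor of the p52 subunit of the noncanonical branch. Its levels were 58.0, 60.4 and 55.8 CPM in the lysates and 31.6, 158 and 26.99 CPM in the immunoprecipitates. Again the library labelled 2 was highest and the other immunoprecipitates lowest, with no overlap of either with the lysates. The log2 fold change was 0.31 (SE 0.69, edgeR BH-adjusted p = 0.824) over all libraries, and without the library labelled 2 NFKB2 fell by 0.98 (SE 0.09, edgeR BH-adjusted p = 2.39e-04).

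NFKB1 (ENSG00000109320, chromosome 4, 102501330 to 102617302), which encodes p105 and its product p50, lay closer to the lysates than RELA and NFKB2 did in immunoprecipitates 1 and 3. It was at 53.0, 53.2 and 48.0 CPM in lysate and 39.2, 144 and 41.3 CPM in the immunoprecipitates. Fitted to all libraries, its log2 change was 0.54 (SE 0.53, edgeR BH-adjusted p = 0.591). With the library labelled 2 left out, NFKB1 fell by 0.34 (SE 0.08, edgeR BH-adjusted p = 0.0141), a call that was lost with upper quartile scaling (adjusted p = 0.0517) and with library totals (adjusted p = 0.140).

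RELB (ENSG00000104856, chromosome 19, 45001461 to 45038192), encodes the partner of p52. Lysates held 15.4, 17.4 and 16.6 CPM and the immunoprecipitates 14.9, 33.2 and 12.8 CPM. The library labelled 2 was 2.01-fold above the lysate mean, and immunoprecipitate 1 lay just under the lowest lysate. In FPKM, counts scaled by length and library, immunoprecipitate 1 was at 5.23, above the lysates at 4.79, 5.17 and 4.97. Neither fit called it: the log2 fold change was 0.30 (SE 0.39, edgeR BH-adjusted p = 0.692) with every library and -0.24 (SE 0.13, edgeR BH-adjusted p = 0.185) without the library labelled 2.

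The inhibitor genes were also highest in the library labelled 2. NFKBIA (ENSG00000100906, chromosome 14, 35401079 to 35404749) was at 66.3, 49.2 and 51.9 CPM in lysate and 40.7, 134 and 34.3 CPM in the immunoprecipitates. All lysates lay between the library labelled 2 and the other immunoprecipitates. Its log2 fold change was 0.32 (SE 0.54, edgeR BH-adjusted p = 0.766) over all libraries. NFKBIA fell by 0.56 without the library labelled 2 (SE 0.16, edgeR BH-adjusted p = 0.0275), and this call was lost with upper quartile scaling (adjusted p = 0.0615) and library totals (adjusted p = 0.104).

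TNFAIP3 (ENSG00000118503, chromosome 6, 137867214 to 137883314) encodes A20, a ubiquitin-editing enzyme that shuts off signalling upstream of the IkB kinase. It was at 46.8, 30.2 and 29.03 CPM in lysate and 29.3, 137 and 26.5 CPM in the immunoprecipitates. The library labelled 2 was 3.86-fold above the lysate mean, while immunoprecipitate 1 lay within the range of the lysates. Neither fit called TNFAIP3, with log2 fold changes of 0.86 (SE 0.68, edgeR BH-adjusted p = 0.501) and, without the library labelled 2, -0.33 (SE 0.23, edgeR BH-adjusted p = 0.280). The antisense gene WAKMAR2 overlaps it over 1020 bases and held 11 to 79 counts per library. Lysate 1 was the highest lysate for NFKBIA and for TNFAIP3. Neutrophil markers summed to 497 CPM in lysate 1 and to 306 and 287 CPM in lysates 2 and 3. Macrophage and general leukocyte markers summed to 554, 428 and 419 CPM in the same order. Fibroblast, lymphocyte and endothelial sums were also highest in lysate 1, and the kidney epithelial sum was not. The part of such cells in these levels was not tested.

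TRAF1 and TRAF2 encode adaptors that dock on receptors of the tumour necrosis factor family and carry the cIAP ubiquitin ligases there. In immunoprecipitates 1 and 3 they lay on opposite sides of the lysates. TRAF1 (ENSG00000056558, chromosome 9, 120902393 to 120926796), an inducible adaptor, was at 12.6, 10.7 and 12.3 CPM in lysate and 5.37, 154 and 5.77 CPM in the immunoprecipitates. The library labelled 2 was 12.99-fold above the lysate mean, the largest such fold among the 10 genes, and immunoprecipitates 1 and 3 were 2.21-fold and 2.06-fold below it. The log2 fold change was 2.21 (SE 1.32, edgeR BH-adjusted p = 0.379) over all libraries, and without the library labelled 2 TRAF1 fell by 1.08 (SE 0.18, edgeR BH-adjusted p = 0.00288). DESeq2 gave no p-value for TRAF1 over all 6 libraries.

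TRAF2 (ENSG00000127191, chromosome 9, 136881912 to 136926607), the broadly expressed adaptor that recruits BIRC2 and BIRC3 to the receptor, was at 51.4, 55.1 and 56.4 CPM in the lysates. The immunoprecipitates held 120, 57.7 and 108 CPM. Here the library labelled 2 lay 1.06-fold above the lysate mean, and immunoprecipitates 1 and 3 lay 2.202-fold and 2.00-fold above it. TRAF2 was not called over all libraries (log2 fold change 0.81, SE 0.29, edgeR BH-adjusted p = 0.199), and without the library labelled 2 it rose by 1.08 (SE 0.07, edgeR BH-adjusted p = 4.75e-05). MIR4479, which lies within the gene on the same strand, held at most 1 count per library.

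BIRC2 and BIRC3 encode cIAP1 and cIAP2, ubiquitin ligases that block cell death downstream of the tumour necrosis factor receptor and restrain the noncanonical branch. The genes lie 7.8 kb apart on the same strand of chromosome 11. BIRC3 (ENSG00000023445, 102317450 to 102339403) was at 70.3, 70.5 and 67.1 CPM in lysate and 183, 235 and 162 CPM in the immunoprecipitates. All 3 immunoprecipitates were above all lysates, by 2.34-fold to 3.40-fold over the lysate mean, an order seen in 13.4% of tested genes. BIRC3 rose: its mean was 69.3 ± 1.94 CPM in lysate and 194 ± 37.6 CPM in immunoprecipitate (SD, n = 3 each), and the fitted log2 change was 1.48 (SE 0.20, edgeR BH-adjusted p = 0.0459). Without the library labelled 2 it was 1.33 (SE 0.07, edgeR BH-adjusted p = 2.44e-05). Leaving out any other library kept the log2 change between 1.44 and 1.58 but ended the call, with edgeR adjusted p from 0.147 to 0.415. In those fits none of the tested genes was called in either direction. An antisense gene, ENSG00000288528, overlaps BIRC3 and held at most 5 counts per library.

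BIRC2 (ENSG00000110330, chromosome 11, 102347211 to 102378670) was at 79.2, 80.1 and 70.9 CPM in lysate and 183, 131 and 176 CPM in the immunoprecipitates. Every immunoprecipitate was above every lysate, and the library labelled 2 was the lowest of the 3. The mean went from 76.7 ± 5.05 to 163 ± 28.3 CPM (SD, n = 3 each), with a fitted log2 change of 1.09, which was not called with edgeR (SE 0.20, edgeR BH-adjusted p = 0.0774) but was called with DESeq2 (1.11, SE 0.27, DESeq2 adjusted p = 0.00156). Leaving the library labelled 2 out, BIRC2 rose by 1.24 (SE 0.07, edgeR BH-adjusted p = 3.45e-05).

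**Figure D2:**
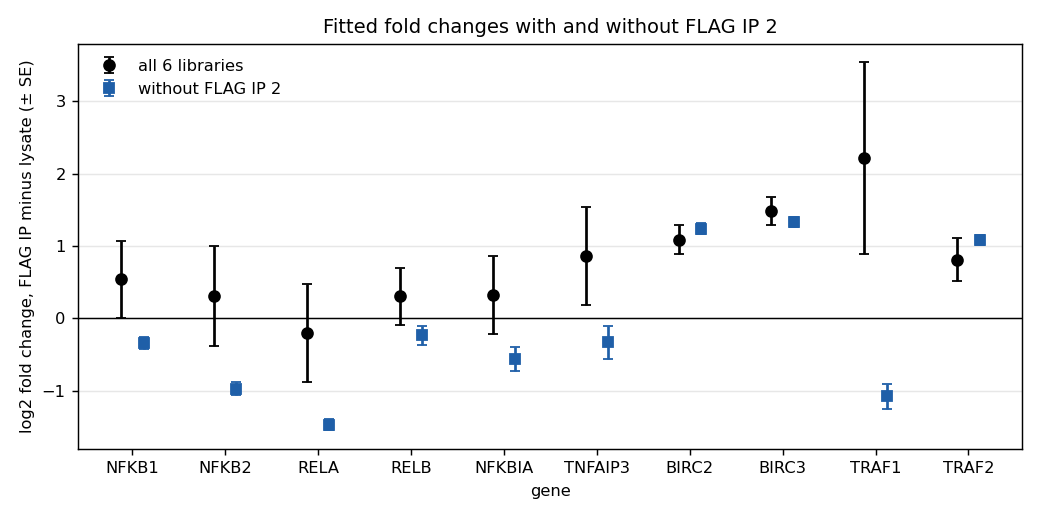
Fitted log2 fold change (immunoprecipitate minus lysate, bars are SE from edgeR) of the 10 genes over all 6 libraries (black circles) and without the library labelled 2 (blue squares). BIRC2, BIRC3 and TRAF2 are above 0 in both fits, while NFKB1, NFKB2, RELB, NFKBIA, TNFAIP3 and TRAF1 are above 0 in one and below 0 in the other.

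The scale mattered for the small differences. Scaling by library totals in place of TMM moved the median log2 fold change of all genes up by 0.13 over all libraries and by 0.18 without the library labelled 2, and upper quartile scaling moved the latter by 0.11. The signs of all 10 genes without that library were the same under TMM, RLE, upper quartile and total scaling, as were the calls of NFKB2, RELA and TRAF1 as lower and of BIRC2, BIRC3 and TRAF2 as higher. These checks were added after seeing the data.

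Levels between genes were compared on the FPKM scale, which corrects for length. In the lysates BIRC2 had the highest mean FPKM of the 10 (15.4 ± 1.13), followed by NFKBIA (14.9 ± 2.82), TRAF2 (13.4 ± 0.41), RELA (11.2 ± 0.67), NFKB2 (9.42 ± 0.37), BIRC3 (8.36 ± 0.33), TNFAIP3 (5.04 ± 1.53), RELB (4.98 ± 0.19), NFKB1 (2.97 ± 0.20) and TRAF1 (2.41 ± 0.26; SD, n = 3 each). The ranges of the lysates overlapped between BIRC2 and NFKBIA, between NFKBIA and TRAF2, and between TNFAIP3 and RELB, so the order within those pairs is not resolved. In immunoprecipitates 1 and 3 the leading genes were BIRC2 (42.5 and 40.1 FPKM), TRAF2 (34.3 and 30.4) and BIRC3 (25.7 and 22.2), and TRAF1 was last in each (1.26 and 1.32). In the library labelled 2 NFKBIA led with 36.7 FPKM and TRAF1 came next with 32.2 FPKM, while NFKB1 was last with 8.54 FPKM.

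The transcript table lists 104 transcripts of the 10 genes, from 2 for TRAF1 to 18 for NFKB2 and 18 for NFKBIA, and 47 passed the filter. Over all 6 libraries edgeR called 0 of them in either direction, while 6 had an unadjusted p below 0.05, as did 9.67% of all tested transcripts. None of the 62534 transcripts tested was called, a background of 0%. Without the library labelled 2, 1 of 50 was higher and 3 were lower (2.45% and 6.10% of all transcripts). Counts of overlapping transcripts are estimates, and many were at 0 in some replicates of a group.

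The transcript that was higher was ENST00000263464, the 9-exon coding transcript of BIRC3 (6877 nt). It took 81.9%, 99.9% and 92.4% of BIRC3 counts in the lysates and 96.3%, 90.7% and 100% in the immunoprecipitates, so the gene level and this transcript are nearly the same measurement. Its log2 fold change was 1.36 (SE 0.30, edgeR BH-adjusted p = 0.263) with every library and 1.10 (SE 0.17, edgeR BH-adjusted p = 0.0370) without the library labelled 2. TRAF2 counts likewise came mostly from a single coding transcript, ENST00000247668, with 94.7% to 98.7% in every library, and TRAF1 counts from ENST00000373887, with at least 99.1%.

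BIRC2 was the only one of the 9 genes tested whose transcript usage was called over all libraries (edgeR diffSpliceDGE with Simes' method, adjusted p = 0.0381), where 2.32% of 11671 genes were called. The coding transcript ENST00000613397 had 3185, 4774 and 876 counts in the lysates and 0 in each immunoprecipitate, and it was among the transcripts called lower without the library labelled 2 (edgeR BH-adjusted p = 0.0374). ENST00000227758, another 9-exon coding transcript with an earlier start, had 1966, 1339 and 4587 counts in the lysates and 6558, 6860 and 11235 in the immunoprecipitates. The coding transcript ENST00000532672 was uneven, with 61, 110 and 243 counts in the lysates and 4972, 0 and 0 in the immunoprecipitates. In these estimates ENST00000613397 had the most BIRC2 counts in lysates 1 and 2, and ENST00000227758 had the most in lysate 3 and in every immunoprecipitate. Leaving out lysate 1, 2 or 3 ended the usage call (adjusted p = 0.129, 0.160 and 0.106). With the library labelled 2 left out, usage was called for BIRC2 (adjusted p = 0.0201), NFKB1 (adjusted p = 0.0244) and TRAF2 (adjusted p = 0.0342), against 11.7% of 12602 genes. For TRAF2 the minor transcript ENST00000419057 had 16, 9 and 42 counts in the lysates, at most 0.847% of the gene, and 0 in immunoprecipitates 1 and 3. Its main transcript kept nearly all counts in every library.

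Transcripts not annotated as protein coding took a varying share of the counts, also between lysates. In lysates 1, 2 and 3 the share was 1.1%, 36.6% and 33.4% for RELA. It was 23.0%, 13.5% and 2.26% for NFKB2 and 55.95%, 27.8% and 47.4% for NFKBIA. For TNFAIP3 such transcripts were all retained-intron transcripts, and they held 7.01% (95% Wilson interval 6.21 to 7.89), 1.62% (1.20 to 2.204) and 2.15% (1.66 to 2.79) of counts in the lysates. In the immunoprecipitates the share was 43.0% (40.8 to 45.3), 32.6% (31.5 to 33.7) and 73.2% (71.0 to 75.2). Every immunoprecipitate was above every lysate, as was the case for 18.1% of 9698 genes with at least 100 counts in every library. The usage test did not call TNFAIP3. The intervals cover counting error only and not the error of the assignment.

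For NFKB1 the share was 5.31% (4.66 to 6.05), 5.91% (5.24 to 6.65) and 14.3% (13.3 to 15.4) in the lysates. It was 29.7% (28.0 to 31.5) in immunoprecipitate 1, 6.04% (5.53 to 6.60) in the library labelled 2 and 100% in immunoprecipitate 3, where 0 of 2637 counts were assigned to coding transcripts, which allows a coding share of up to 0.114% by 3 counts of the total. The Wilson interval of the non-coding share there was 99.85 to 100, and neither limit covers an error of assignment. The main coding transcript of the lysates, ENST00000394820, with 24 exons, had 2869, 2771 and 2869 counts there, 3332 counts in the library labelled 2 and 0 in immunoprecipitates 1 and 3. Another coding transcript, ENST00000226574, had 940, 1129 and 724 counts in the lysates and 1752, 3809 and 0 in the numbered immunoprecipitates. Without the library labelled 2 ENST00000394820 fell (edgeR BH-adjusted p = 0.00976). The RELA coding transcript ENST00000525693 fell too (edgeR BH-adjusted p = 0.0422), from 3997, 3316 and 3401 counts in the lysates to 394 and 154 in immunoprecipitates 1 and 3. Another RELA coding transcript, ENST00000406246, had 1123, 330 and 76 counts in the lysates and 1110 and 1298 in those immunoprecipitates. It took 70.5% and 85.8% of RELA counts there and was not called (edgeR BH-adjusted p = 0.579). For BIRC2 the share on transcripts not annotated as protein coding was lower in the immunoprecipitates. It was 13.3% (12.5 to 14.2), 4.55% (4.08 to 5.09) and 8.53% (7.86 to 9.25) in the lysates. In the immunoprecipitates it was 0.612% (0.486 to 0.771), 0.767% (0.587 to 1.00) and 0.213% (0.143 to 0.317), below all lysates, an order held by 4.12% of those genes.

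**Figure D3:**
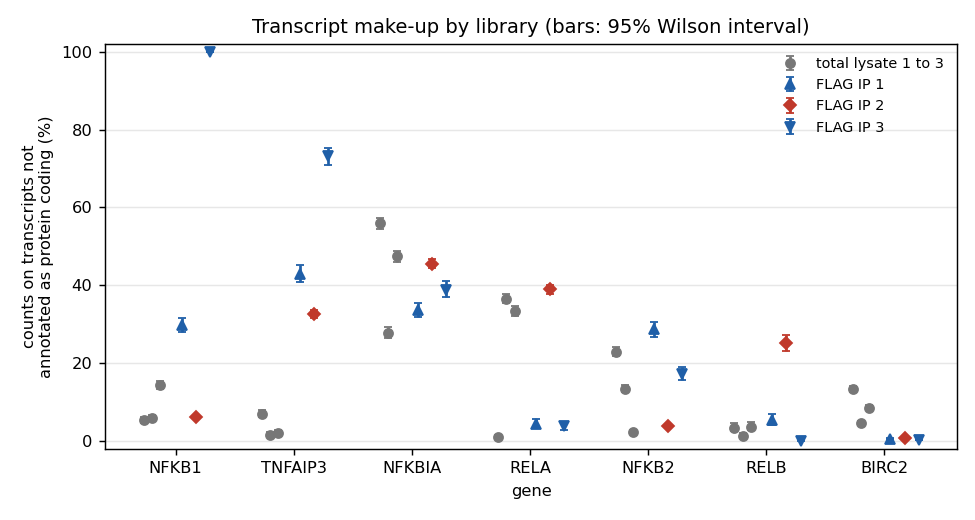
Percent of a gene's counts assigned to transcripts not annotated as protein coding, per library, for 7 of the genes (bars are 95% Wilson intervals). TNFAIP3 is higher in every immunoprecipitate than in any lysate, NFKB1 reaches 100% in immunoprecipitate 3, and BIRC2 is lowest in the immunoprecipitates.

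The rest of the pathway was read from 6 lists. Beside the list counts at an unadjusted p below 0.05 in edgeR, 11.9% of all tested genes were higher and 9.44% lower. Upstream, the 14 receptor genes had a median log2 fold change of -0.10 (0.06 over all tested genes), with 1 called lower and 0 higher. TNFRSF21, the death receptor DR6, fell from a mean of 165 ± 3.50 CPM to 48.6 ± 12.9 CPM (SD over 3 libraries each), with a fitted log2 change of -1.76 (SE 0.23, edgeR BH-adjusted p = 0.0459), and every immunoprecipitate was below every lysate, as in 17.7% of tested genes. Leaving out any library but the one labelled 2 ended this call, as it did the call of every other gene (edgeR BH-adjusted p = 0.158 to 0.399 for TNFRSF21). Without the library labelled 2 the log2 change of TNFRSF21 was -1.97 (edgeR BH-adjusted p = 1.93e-05). LTBR, the lymphotoxin receptor that feeds the noncanonical branch, and TNFRSF12A had log2 fold changes of -0.87 and -0.59 and were not called over all libraries (edgeR BH-adjusted p = 0.126 and 0.182). Both fell without the library labelled 2, by 1.09 and 0.66 on the log2 scale (edgeR BH-adjusted p = 8.92e-05 and 0.0120). With the library labelled 2 left out, 9 receptors were lower and 1 was higher, beside 27.2% and 23.9% of all genes, with a median of -0.84 against -0.06 over all genes. Of 11 ligand genes 10 were tested and 0 were called over all libraries, with 0 at an unadjusted p below 0.05 and, without the library labelled 2, 3 lower (27.2% of all genes) and 0 higher (23.9%). TNF was at 1.17 to 1.63 CPM in lysate and 1.64, 10.2 and 2.21 CPM in the immunoprecipitates, and neither fit called it (log2 change 1.67 and, without the library labelled 2, 0.40). LTB, a lymphotoxin chain, was at 4.75 to 5.37 CPM in lysate and 1.75, 4.21 and 0.735 CPM in the immunoprecipitates. It was not called over all libraries (log2 change -1.16, edgeR BH-adjusted p = 0.344) and fell by 2.00 without the library labelled 2 (edgeR BH-adjusted p = 0.00850). TNFSF14, also known as LIGHT, was below 1 CPM in every library but the one labelled 2, where it was at 35.8 CPM, and neither fit called it (edgeR BH-adjusted p = 0.244 and 0.603).

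Of the 24 kinase and adaptor genes, 0 were called over all libraries, 3 were higher and 2 lower at an unadjusted p below 0.05, and the median was -0.11. MAP3K8, a kinase held by p105, was at 4.50, 3.21 and 3.54 CPM in lysate and 10.6, 75.6 and 6.98 CPM in the immunoprecipitates (log2 fold change 3.05, SE 0.96, edgeR BH-adjusted p = 0.164). With the library labelled 2 left out it rose by 1.24 on the log2 scale (SE 0.28, edgeR BH-adjusted p = 0.0109). RIPK1, the scaffold kinase of the receptor complex, was at 44.8 to 49.5 CPM in the lysates and 62.3 to 64.2 CPM in the immunoprecipitates, a narrow but separate range that was not called over all libraries (log2 change 0.43, edgeR BH-adjusted p = 0.189) and was called higher without the library labelled 2 (0.45, edgeR BH-adjusted p = 0.00247). RBCK1, a subunit of the linear ubiquitin ligase, had a log2 fold change of -0.61 (edgeR BH-adjusted p = 0.142), and fell by 0.59 without the library labelled 2 (edgeR BH-adjusted p = 0.00562). Without the library labelled 2, 7 of the 24 were higher and 7 lower, near the background of 23.9% and 27.2%.

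Among 16 other subunit, inhibitor and partner genes 0 were called over all libraries (1 higher and 2 lower at an unadjusted p below 0.05), with a median of 0.22. Without the library labelled 2, 3 were higher and 5 lower (23.9% and 27.2% of all genes). OTULIN, which removes linear ubiquitin chains, was at 43.8 to 47.0 CPM in lysate and 62.3 to 66.2 CPM in the immunoprecipitates (log2 fold change 0.49, edgeR BH-adjusted p = 0.157), and it was called higher without the library labelled 2 (0.52, edgeR BH-adjusted p = 9.59e-04). PDLIM2 and NKIRAS2, inhibitors of the pathway, had log2 fold changes of -0.905 and -0.999 (edgeR BH-adjusted p = 0.169 and 0.230). Both were called lower without the library labelled 2, at -0.86 and -1.55 (edgeR BH-adjusted p = 0.0392 and 3.19e-04). Of 10 other TRAF and IAP family genes 0 were called (2 higher and 1 lower at an unadjusted p below 0.05), with a median of 0.27. NAIP was at 8.15 to 11.4 CPM across the lysates, then 57.8 and 55.6 CPM in immunoprecipitates 1 and 3 and at 6.42 CPM in the library labelled 2. It was not called over all libraries (log2 change 2.07, edgeR BH-adjusted p = 0.203) and was called higher without the library labelled 2 (2.59, edgeR BH-adjusted p = 4.04e-05). NAIP has near-identical copies, and its counts are uncertain. BIRC5, which encodes survivin, had a log2 fold change of 0.99 (edgeR BH-adjusted p = 0.209), and of 1.32 without the library labelled 2, where it was called higher (edgeR BH-adjusted p = 3.76e-04). BIRC7 was below 3 CPM throughout and was called in neither fit (edgeR BH-adjusted p = 0.225 and 0.0602). Leaving the library labelled 2 out, 5 of these 10 were higher and 1 lower, beside 23.9% and 27.2% of all genes.

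Downstream, 23 of 24 other target genes were tested, with 0 called higher and 2 lower. BCL2L1, the antiapoptotic BCL-X gene, fell from 348 ± 13.8 to 140 ± 8.36 CPM, and PLAU, the urokinase gene, fell from 539 ± 33.5 to 160 ± 44.1 CPM (SD over 3 libraries each, BH-adjusted p in edgeR = 0.0423 and 0.0486). As for BIRC3 and every other called gene, leaving out any library but the one labelled 2 ended these calls, with adjusted p in edgeR from 0.151 to 0.410. Without the one labelled 2 the log2 changes were -1.27 and -1.98 (edgeR BH-adjusted p = 1.84e-05 and 6.72e-06). CXCL8, the chemokine interleukin-8, was at 157, 137 and 138 CPM in lysate and 256, 269 and 268 CPM in the immunoprecipitates, with a fitted log2 change of 0.88 (SE 0.16), not called (edgeR BH-adjusted p = 0.0803). With the library labelled 2 left out, CXCL8 rose by 0.87 (SE 0.08, edgeR BH-adjusted p = 2.87e-04). The list median was 0.82 over all libraries and -0.77 without the library labelled 2, where 8 targets were higher and 12 lower, beside 23.9% and 27.2% of all genes. In the library labelled 2, 10 of 23 targets were at least 2-fold above the lysate mean, beside 13.3% of tested genes. ICAM1, an adhesion molecule, and SOD2, the mitochondrial superoxide dismutase, were chosen as examples after their values were seen. Over all libraries neither was called (edgeR BH-adjusted p = 0.697 and 0.456), and without the library labelled 2 both fell, by 2.06 and 0.57 on the log2 scale (edgeR BH-adjusted p = 1.42e-05 and 4.00e-04). ICAM1 was at 164 to 165 CPM across the lysates, then 42.7 and 35.4 CPM in immunoprecipitates 1 and 3 and at 839 CPM in the library labelled 2. SOD2 was at 317 to 342 CPM across the lysates, then 218 and 225 CPM in immunoprecipitates 1 and 3 and at 1877 CPM in the library labelled 2. Both had the library labelled 2 above every lysate and immunoprecipitates 1 and 3 below every lysate. Only 7 of the 23 tested targets held this order, beside 16.4% of tested genes, so the 2 examples do not stand for the list.

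**Figure D4:**
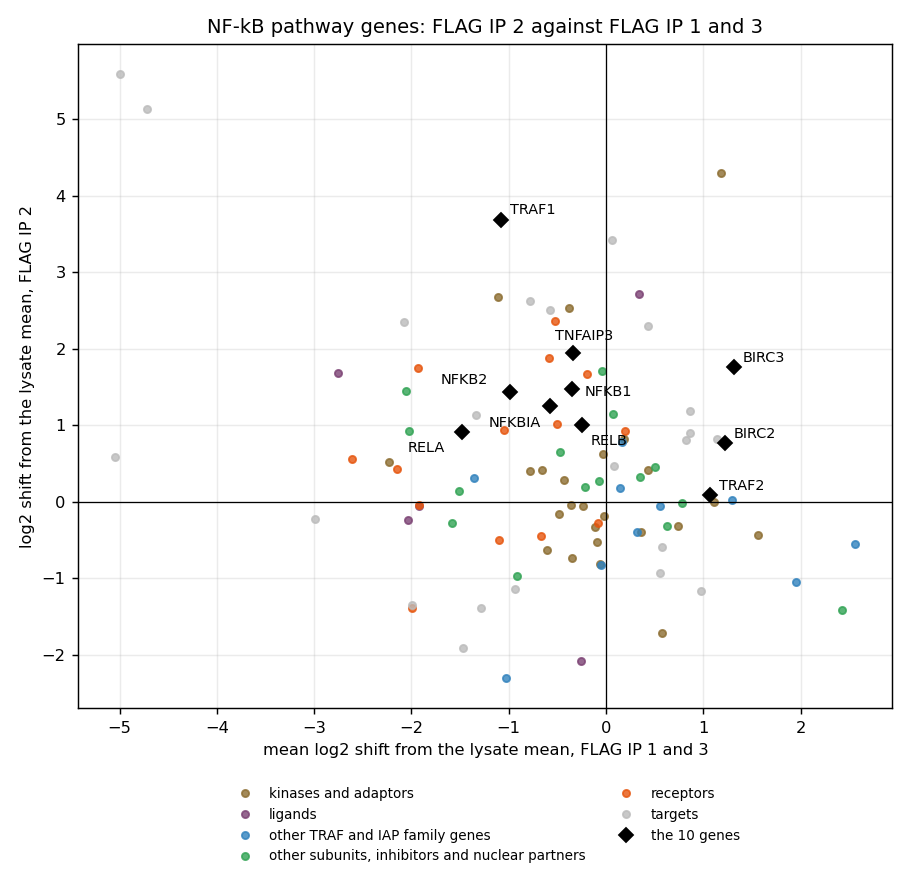
Log2 shift from the lysate mean in the library labelled FLAG immunoprecipitate 2 (vertical axis) against the mean shift in immunoprecipitates 1 and 3 (horizontal axis), for the 10 genes (black diamonds) and 90 other pathway genes of at least 1 CPM in lysate (colours by list). All 10 genes lie above the horizontal zero line, and BIRC2, BIRC3 and TRAF2 lie to the right of the vertical one.

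Summed markers of other cell types differed between the libraries. Over the 12 neutrophil markers the summed level was 287 to 497 CPM in the lysates, 348 CPM in the library labelled 2, and 95.9 and 9.58 CPM in immunoprecipitates 1 and 3, with 7 of 12 at 1 CPM or more in every lysate and the granule genes MPO and ELANE below 1 CPM in all libraries. The 9 macrophage and general leukocyte markers summed to 419 to 554 CPM in the lysates, 438 CPM in the library labelled 2 and 109 and 45.6 CPM in the other immunoprecipitates, all 9 at 1 CPM or more in every lysate. The 10 fibroblast markers summed to 160 to 188 CPM, 348 CPM and 24.3 and 25.9 CPM in the same order, with 8 of 10 at 1 CPM or more. Lymphocyte markers (7) summed to 20.6 to 40.6, 26.6, 15.4 and 8.39 CPM, and endothelial markers (5), nearly all of it PECAM1, to 17.9 to 31.7, 24.98, 6.88 and 2.91 CPM. The kidney epithelial sum was 2330 CPM in the library labelled 2 and 1587 and 1599 CPM in the others. In CPM, NFKB1, NFKB2, RELA, RELB (by a small margin), NFKBIA and TRAF1 were lowest in immunoprecipitates 1 and 3. So was the sum of every marker list, the kidney epithelial list included. BIRC2, BIRC3 and TRAF2 were above every lysate in those libraries. The part of other cells in these results was not tested. In such bulk libraries fewer cells of a type and less RNA per cell cannot be told apart. In the immunoprecipitates neither can be told apart from less of an RNA in the pull-down.

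The genes whose profile over the 6 libraries was most like that of BIRC3, among 12300 other genes of at least 5 CPM, were DAXX (Pearson r = 0.999), ELMOD3 (r = 0.998) and NBPF15 (r = 0.998), all on log2 CPM. With 6 libraries in 2 groups this is a description of the likeness only. DAXX was at 88.0, 88.4 and 88.1 CPM in lysate and 115, 123 and 113 CPM in the immunoprecipitates, a smaller difference than that of BIRC3. NBPF15 has close copies in the genome, so its counts are uncertain.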

How the data were processed

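RNA was measured in 6 libraries of HK2 cells, 3 lysates and 3 FLAG immunoprecipitates, grouped by their titles, since the treatment labels give each library another number after VMP. Per the submitters' processing notes, the tools were cutadapt 1.9, HISAT2 2.2.1, StringTie 2.1.6, edgeR and DESeq2, with GRCh38.p14 as the genome build, and their roles are not stated there. The authors deposited raw whole-number counts for genes and for transcripts. FPKM values, scaled by length and library, stand beside them as deposited. The sources used here do not say if strand was used in counting. Column headers name the lysates as input.

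Tests used edgeR 4.0.16 (R 4.3.3; quasi-likelihood, TMM, filterByExpr) over all genes or transcripts, and diffSpliceDGE for usage, adjusted by Benjamini-Hochberg (called below 0.05). SEs were derived from each log2 change and its quasi-likelihood F. DESeq2 1.42.0 and limma 3.58.1 on log2(FPKM + 1) and log2(FPKM + 0.1) were alternatives. Shifts add 0.1 CPM. Gene spans are those of the listed transcripts, since the gene table's own start or end left out part of a transcript for 7828 of 35252 genes. The code was tested on simulated data.

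Members and lists were chosen with earlier results of these data known. Besides the 10 genes, up to 3 genes per list by lowest p, and any called, are named. Called transcripts are also named, with some other transcripts of the genes discussed, and the 3 genes most like a called member. Shares by transcript type and single-library shifts were added after seeing the data.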

Additional observations from a re-analysis of the deposited data

How the results depend on the processing

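Over all 6 libraries 33 genes were called higher and 103 lower, and 1 of the 10 genes higher. With no filter on low counts these were 7, 33 and 0. At least 1 CPM in 3 libraries gave 83 genes higher, DESeq2 1559 higher, 962 lower and 2 of the 10 genes higher. On log2(FPKM + 1) limma gave 17 and 65, on log2(FPKM + 0.1) 20 and 64, and on all genes with FPKM above 0 it gave 0 and 0, with 0 of the 10 genes. With the replicate block, where same-numbered libraries did not deviate together (r from -0.0538 to 0.00997 over genes), 0 genes were higher, 0 lower, 0 of the 10 higher, and 0 had changed usage. Leaving out each library in turn gave 0 to 5276 genes higher and 0 to 5997 lower, 0 to 3 of the 10 genes higher and 0 to 5 lower, 0 to 1 of their transcripts higher and 0 to 3 lower, and 0 to 3 genes with changed usage; the highest values are those without FLAG immunoprecipitate 2.

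Without that library the sign turned for NFKB1 (-0.34), NFKB2 (-0.98), RELB (-0.24), NFKBIA (-0.56), TNFAIP3 (-0.33), TRAF1 (-1.08) and TNFSF14 (-0.39). NFKB2 also turned with limma (-0.00056, -0.032 and -0.00056) and with the replicate block (-0.22). RELA turned without FLAG immunoprecipitate 1 (0.14) or 3 (0.15). Causes were not tested. Leaving out each library in turn, the log2 change ranged from -0.34 to 0.83 for NFKB1, -0.98 to 0.68 for NFKB2, -1.47 to 0.15 for RELA, -0.24 to 0.53 for RELB, -0.56 to 0.62 for NFKBIA, -0.33 to 1.21 for TNFAIP3, -1.08 to 2.73 for TRAF1 and -0.39 to 4.71 for TNFSF14. RLE, upper quartile and total scaling left BIRC3 called.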
